A study of Mus musculus with 27 samples.

Results

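Heat shock chaperones are the proteins that fold, hold and refold other proteins, and the group described here holds 10 of their genes: Hspa1a, Hspa1b, Hspa8, Hspa5, Hsph1, Hsp90aa1, Hsp90ab1, Dnajb1, Hspd1 and Hspe1. They were chosen by symbol, with no measured value in the rule, but with earlier results of these data known. They are 10 of the 53412 gene identifiers counted in one experiment and of the 55421 counted in the other. RNA was sequenced from CD11b+ cells, which in brain tissue are mainly microglia with some other myeloid cells, sorted by flow cytometry from 2 brain regions, prefrontal cortex (PFC) and hippocampus (HC), of mice of the labelled strain C57BJ6. The minocycline experiment (15 libraries) held mice put through a protocol of chronic unpredictable mild stress (CUMS) that also received the antibiotic minocycline (CUMS_M, 3 libraries in PFC and 3 in HC), mice put through CUMS with no drug named (CUMS, 2 in PFC and 3 in HC) and naive control mice (NAIVE, 2 in PFC and 2 in HC). The enrichment experiment (12 libraries) held mice put through CUMS and housed with environmental enrichment (EE, 3 in PFC and 3 in HC) and mice put through CUMS that received vehicle (VEH, 3 in PFC and 3 in HC). Every mouse of the enrichment experiment was therefore stressed, and that experiment has no unstressed control. The labels give neither age nor sex, and do not say whether the replicates are separate animals or pools, so p-values measure the spread between libraries, which may be technical.

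In the cytosol, Hsp70 proteins bind exposed stretches of unfolded proteins in cycles of ATP hydrolysis, Hsp40 co-chaperones such as Dnajb1 deliver the client and start the cycle, and Hsp110 proteins such as Hsph1 exchange the nucleotide. Clients can pass on to Hsp90, which completes the maturation of kinases and steroid receptors. When unfolded proteins accumulate, the transcription factor Hsf1 binds heat shock elements, which are inverted repeats of the unit GAA, and raises the inducible genes within minutes. Hspa1a and Hspa1b encode the same inducible Hsp70 and are low in unstressed tissue, whereas Hspa8 encodes the constitutive Hsp70. Hspa5 (BiP) is the Hsp70 of the endoplasmic reticulum and answers the unfolded protein response, and Hspd1 (Hsp60) and Hspe1 (Hsp10) form the folding chamber of mitochondria. Microglia are known to switch on heat shock and immediate early genes when brain tissue is dissociated with enzymes at warm temperature. The time and temperature of dissociation were not given in the sources used here.

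The inducible pair sits side by side on the minus strand of chromosome 17, Hspa1a at chr17:34969190-34972156 and Hspa1b at chr17:34956436-34959238 (GRCm38, GENCODE M21). Promoter windows of RefSeq (GRCm38.p6) were at hand for 7 of the 10 members, all but Hspa8, Hsp90aa1 and Hsp90ab1, and the 250 bases before the start of each were searched on both strands. The windows of the pair are shown whole because the 2 genes are near copies, in their promoters as in their coding sequence: the windows are identical at 247 of 250 positions (98.8%), with differences at 207, 204 and 2 bases before the start. Capitals mark a 2-unit heat shock element, GAANNTTC, that starts 104 bases before the start in both (minus strand, chr17:34972157-34972406 and chr17:34959239-34959488).
Hspa1a: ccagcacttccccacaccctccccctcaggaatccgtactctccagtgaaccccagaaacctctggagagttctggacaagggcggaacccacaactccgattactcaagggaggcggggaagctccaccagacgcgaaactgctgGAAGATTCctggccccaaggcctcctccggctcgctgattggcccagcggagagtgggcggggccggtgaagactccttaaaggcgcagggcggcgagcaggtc
Hspa1b: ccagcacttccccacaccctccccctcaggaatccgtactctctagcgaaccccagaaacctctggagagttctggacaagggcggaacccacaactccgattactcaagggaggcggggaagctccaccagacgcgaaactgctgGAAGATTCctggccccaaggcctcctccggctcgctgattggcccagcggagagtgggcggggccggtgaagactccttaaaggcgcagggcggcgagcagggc

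Short stretches of 3 other promoters are shown because they carry a different element or a different arrangement of it. Capitals mark a run of alternating TTC and GAA units in Hspe1 (plus strand, chr1:55088053-55088082), the ER stress element of Hspa5 (plus strand, chr2:34772020-34772048) and a 2-unit element in Hsph1 (minus strand, chr5:149636351-149636380).
Hspe1: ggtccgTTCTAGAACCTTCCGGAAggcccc
Hspa5: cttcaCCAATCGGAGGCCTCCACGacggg
Hsph1: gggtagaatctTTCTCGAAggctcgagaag
Hsph1, Dnajb1 and Hspd1 have 2 windows each, and a gene was counted when any of its windows held the motif. The 3-unit element TTCNNGAANNTTC was found in the window of Hspe1 and in 1 of the 2 windows of Hspd1, which start from the same stretch of chromosome 1 on opposite strands and share it. It occurs in 0.514% of the 27025 mouse genes with a window. A 2-unit element, TTCNNGAA or GAANNTTC, was found in 5 of the 7 members with a window (Hspa1a, Hspa1b, Hsph1, Hspd1 and Hspe1), against 14.5% of all genes. The 3-unit motif contains both 2-unit motifs. The ER stress element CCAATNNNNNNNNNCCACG was found in Hspa5 alone among the 7, against 0.13% of all genes. Neither window of Dnajb1, the Hsp40 gene, held any of the heat shock motifs searched. The starts used are those of RefSeq, and GENCODE M21 places some of them elsewhere. By GENCODE M21, Hspa5 spans chr2:34771970-34777547 and Hsph1 spans chr5:149614287-149636376, so the marked letters of both lie inside the annotated gene. The Hspd1 window with the element also lies inside its gene, at chr1:55077835-55088243. A match describes these letters and does not show that a factor binds there.

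Depth was 7.87 M to 15.3 M counts per library for the minocycline experiment and 19.5 M to 23.9 M for the enrichment experiment. In the minocycline experiment it went with the groups compared. PFC NAIVE was shallowest (7.87 M to 8.2 M), against 10.6 M to 12.4 M in PFC CUMS and 8.62 M to 11.2 M in PFC CUMS_M. The HC groups ran from 11.8 M (NAIVE) to 15.3 M (CUMS_M). The microglial genes Cx3cr1 (6809 to 9988 CPM, counts scaled to a common library total), P2ry12 (2522 to 5208 CPM) and Tmem119 (2511 to 5248 CPM) were high in all 27 libraries, which fits the labelled sort. Markers of other cell types were detected too, and those that stood furthest apart between 2 groups are given beside the results. All 10 members passed the count filter in both tables. Some reads cannot be placed on 1 member: of the 76-base windows along the transcripts, 61.5% for Hspa1a, 55.6% for Hspa1b, 68.3% for Hspa8 (shared with 11 genes), 52.9% for Hsp90aa1, 33.3% for Hspd1 and 28.8% for Hspe1 occur in another annotated gene. The treatment of such reads in the counting step was not given in the sources used here, so the levels of these 6 members are uncertain. The gene Gm20481 covers 19.0% of the exon bases of Hspa1a on the other strand. Hspd1 and Hspe1 overlap each other on opposite strands, over 4.24% and 7.60% of their exon bases. The strand setting of the counting step was not given either. On the same strand, Snord14c, Snord14d and Snord14e cover 6.09% of the exon bases of Hspa8. Since the samples are bulk, fewer cells of a type and less RNA per cell cannot be told apart.

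Per kilobase of exon, the constitutive chaperones stood highest. The length was all annotated exon bases of a gene, which for some members far exceed the longest protein-coding transcript. Hspe1 has 1474 exon bases against 774 in that transcript, Hspa8 4301 against 2394 and Hsph1 7266 against 3802. For Hspd1 (2642 against 2423) and Hsp90ab1 (2999 against 2520) the lengths are closer. The order of near neighbours in both experiments therefore depends on the length used. In the minocycline experiment the median level over libraries was 204 CPM per kilobase for Hsp90ab1, the constitutive Hsp90, 202 for Hspa8 and 183 for Hspa5. Per kilobase of exon, Hsp90ab1 was above Hspa8 in 10 of 15 libraries and Hspa8 above Hspa5 in 12 of 15. By that measure these 3 neighbours exchange places between libraries. A second tier held Hspa1b at 43.9, Dnajb1 at 37.6, Hsp90aa1, the inducible Hsp90, at 35.1 and Hspa1a at 32.3 CPM per kilobase. Hspa5 was above Hspa1b in 15 of 15 libraries, but within this tier each gene was above the next in only 8 to 11 of 15. By the exon length the mitochondrial pair had close levels, 20.4 for Hspd1 and 19.4 for Hspe1, and Hspd1 was above Hspe1 in 7 of 15 libraries. Hsph1 was lowest at 4.95 CPM per kilobase, below Hspe1 in 15 of 15.

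In the enrichment experiment the order began with Hspa8 at 296 and Hsp90ab1 at 289.8 CPM per kilobase, and Hspa8 was the higher in 7 of 12 libraries. Hspa5 followed at 203, Hspa1b at 101.4, Hsp90aa1 at 71.3, Dnajb1 at 60.5 and Hspa1a at 50.05 CPM per kilobase. Hspd1 (23.2), Hspe1 (18.1) and Hsph1 (6.24) closed the order again. The tables were normalised separately, so levels are not compared between experiments.

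**Figure D1:**
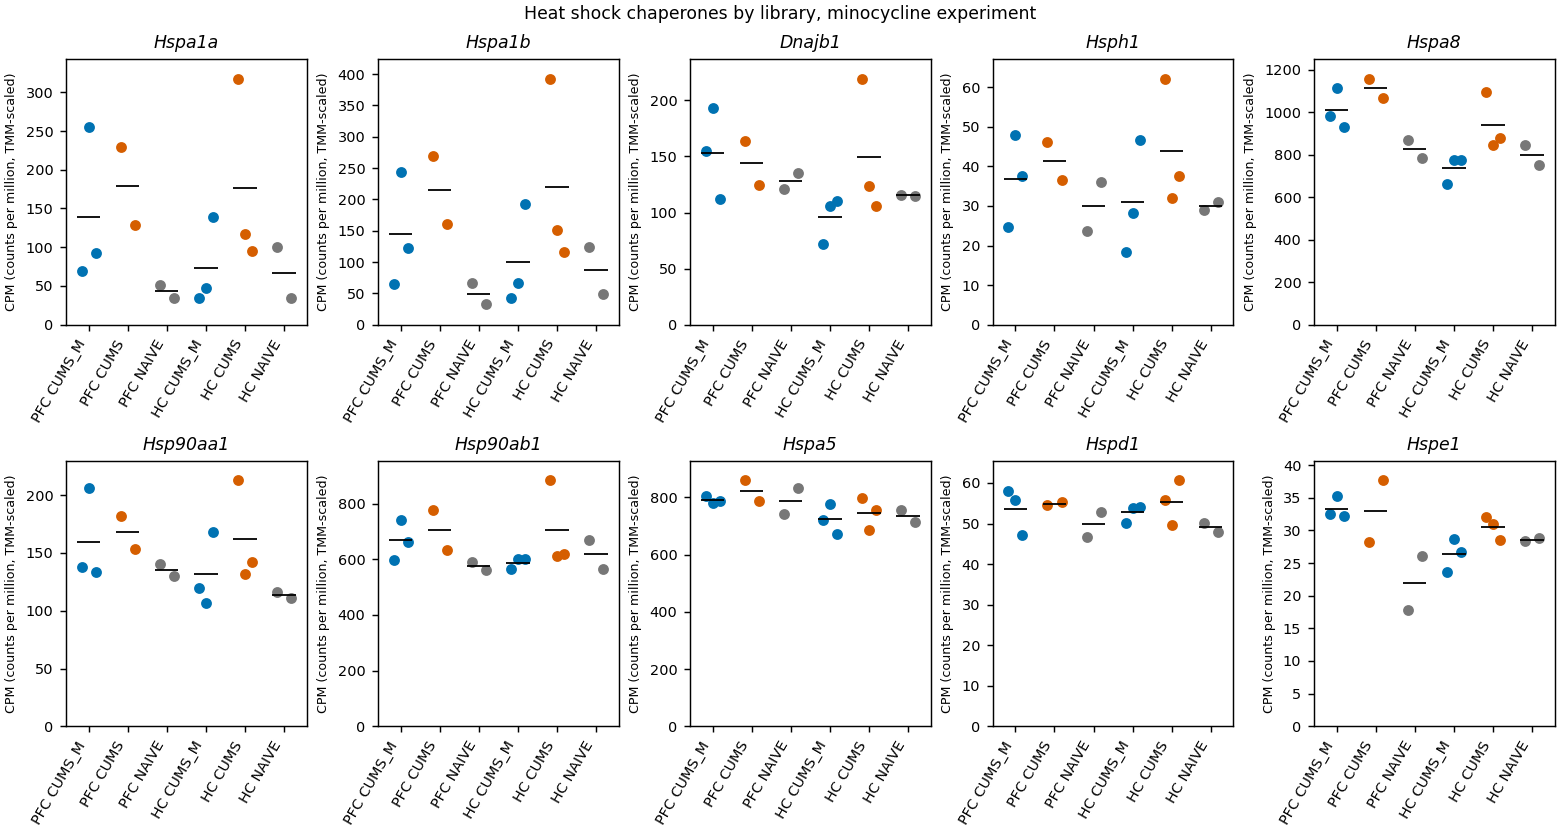
Level of each member in CPM (vertical axes, each from 0) in the 15 libraries of the minocycline experiment. Points are libraries, lines are group means, and Hspa1a and Hspa1b spread from 33.9 to 317 CPM and from 32.5 to 393 CPM, whereas Hspa5 and Hspd1 stay within narrow bands.

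**Figure D2:**
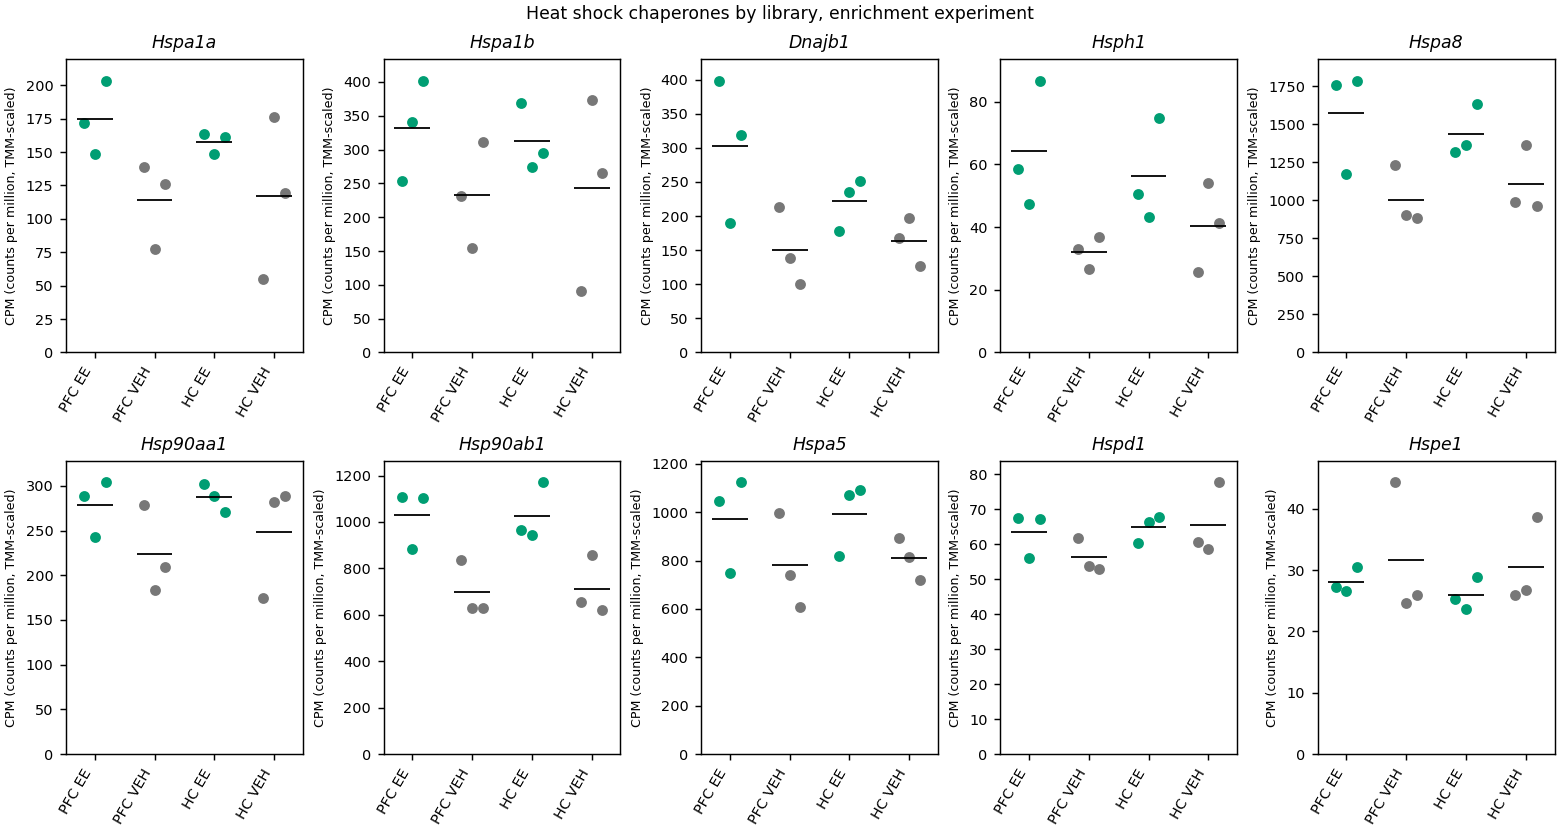
Level of each member in CPM (vertical axes, each from 0) in the 12 libraries of the enrichment experiment. Points are libraries and lines are group means, and for Hspa1a, Hsph1 and Hsp90ab1 the 3 PFC EE libraries all lie above the 3 PFC VEH libraries.

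The first question the design poses is whether chronic stress without treatment altered these genes. In the PFC every member had a higher fitted mean in CUMS than in NAIVE, but no member passed the threshold. Hspa1a had 229 and 129 CPM in PFC CUMS, against 51.1 and 34.8 CPM in PFC NAIVE. Hspa1b, its near copy, had 269.9 and 161 CPM in PFC CUMS, against 66.8 and 32.5 CPM in PFC NAIVE. The groups did not overlap for either gene, and the lower CUMS library was above the higher NAIVE library in both. The log2 fold change was 2.06 ± 0.98 (SE) for Hspa1a and 2.12 ± 0.97 for Hspa1b, with edgeR quasi-likelihood adjusted p of 0.399 and 0.382. With the counts of both genes summed as 1 feature it was 2.09 ± 0.97 (edgeR adjusted p = 0.384).

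Hspa8, the constitutive Hsp70, had 1158 and 1069 CPM in PFC CUMS, against 867 and 785 CPM in PFC NAIVE. The groups were apart by more than their own ranges, and the fold was 1.35 (log2 0.43 ± 0.13, edgeR adjusted p = 0.123). Hspe1, the mitochondrial co-chaperonin, had 28.2 and 37.7 CPM in PFC CUMS, against 17.8 and 26.1 CPM in PFC NAIVE. The difference of Hspe1 was 0.58 on the log2 scale (SE 0.19, edgeR adjusted p = 0.162), and the lower CUMS library stood only just above the higher NAIVE library. Without replicate 2 of PFC NAIVE the adjusted p of Hspe1 was 0.0244.

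Of the 10 members, 0 were called by edgeR, against 0.816% of the 14579 genes tested, and 0 by DESeq2, against 2.39%, and 2 had an unadjusted p under 0.05, both higher, against 8.76% of all genes in that direction. The groups did not overlap, with CUMS higher, for 8 of 10 members, against 24.2% of all genes. All 10 log2 fold changes were above 0, against 52.4% of all genes, and their median was 0.37 against 0.021 over all genes. Here and in the contrasts below, such counts of members are not separate pieces of evidence. The members share libraries, those of the cytosol varied together from library to library, and Hspa1a and Hspa1b share reads. Without replicate 1 of PFC CUMS the members' median was 0.24. The remaining members were Hspa5 (859 and 787 CPM in CUMS, 742 and 833 in NAIVE) and Dnajb1 (163 and 125 CPM in CUMS, 121 and 136 in NAIVE), whose groups overlapped.

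Markers of other cells also differed in this PFC contrast. Of 8 astrocyte markers, 6 were called higher, and their summed level was 682 to 734 CPM in PFC CUMS, against 216 to 251 CPM in PFC NAIVE. Endothelial and mural markers (3 of 6 called higher) summed to 138 to 165 CPM in PFC CUMS, against 68.3 to 80.4 CPM in PFC NAIVE. Both marker sums were higher in every CUMS library than in either NAIVE library. Of the 6 neuronal markers 1 was called higher, and Stmn2 was at 0 in both NAIVE libraries, while the summed level was 27.2 to 30.0 CPM in PFC CUMS, against 8.38 to 64.7 CPM in PFC NAIVE. Neutrophil markers stood lower, at 1337 to 1656 CPM in PFC CUMS, against 2394 to 3525 CPM in PFC NAIVE. Of these markers 6 of 6 were lower without overlap, against 19.4% of all genes, and 0 were called by edgeR or DESeq2 (0 at an unadjusted p under 0.05). Immediate early genes summed to 20571 to 23818 CPM in PFC CUMS, against 17307 to 20617 CPM in PFC NAIVE. The 8 microglial markers summed to 41165 to 44084 CPM in PFC CUMS, against 47912 to 51507 CPM in PFC NAIVE, lower without overlap. Border macrophage and monocyte markers summed to 441 to 536 CPM in PFC CUMS, against 321 to 388 CPM in PFC NAIVE, higher without overlap. No marker of these last 2 lists was called by edgeR. The part of these in the chaperone values was not tested.

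In the HC every member again had a higher fitted mean in CUMS than in NAIVE. Hspa1a had 317, 118 and 95.7 CPM in HC CUMS, against 100.1 and 33.9 CPM in HC NAIVE. Hspa1b had 393, 152 and 116 CPM in HC CUMS, against 125 and 49.3 CPM in HC NAIVE. Replicate 1 of HC CUMS was the highest of the 3 for both genes, and the lowest CUMS library lay below the higher NAIVE library. Hsph1, the Hsp110 exchange factor, had 62.1, 32.1 and 37.6 CPM in HC CUMS, against 28.9 and 31.0 CPM in HC NAIVE. Hsp90aa1 had 213, 132 and 142 CPM in HC CUMS, against 116 and 111 CPM in HC NAIVE, and Hspa8 had 1093, 847 and 880.5 CPM in HC CUMS, against 843 and 754 CPM in HC NAIVE. These last 3 genes were the members whose groups did not overlap, 3 of 10 against 10.3% of all genes.

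No member was called in the HC contrast by edgeR (0 of 10, 0 also at an unadjusted p under 0.05) or by DESeq2 (0 of 10). The background there was 0% of 14579 genes by edgeR, with 418 genes (2.87%) at an unadjusted p under 0.05 and 1 gene (0.00686%) called by DESeq2. All 10 log2 fold changes were above 0, against 48.5% of all genes, with a median of 0.31 against -0.0067 over all genes. Without replicate 1 of HC CUMS the members' median was 0.16. The fit gave 1.40 ± 0.88 for Hspa1a and 1.34 ± 0.87 for Hspa1b on the log2 scale (edgeR adjusted p = 1 for both). Immediate early genes summed to 15251 to 28072 CPM in HC CUMS, against 11148 to 19532 CPM in HC NAIVE, and all 22 of them had log2 fold changes above 0 (median 0.65, 0 called by edgeR or DESeq2, 5 at an unadjusted p under 0.05). Astrocyte markers summed to 415 to 473 CPM in HC CUMS, against 271 to 329 CPM in HC NAIVE (0 of 8 called by edgeR or DESeq2, 6 at an unadjusted p under 0.05). Oligodendrocyte markers summed to 599.7 to 753 CPM in HC CUMS, against 448 to 449 CPM in HC NAIVE (0 of 6 called by edgeR or DESeq2, 1 at an unadjusted p under 0.05). Neutrophil markers stood on the other side, at 121 to 323 CPM in HC CUMS, against 535 to 1202 CPM in HC NAIVE (0 of 6 called by edgeR or DESeq2, 1 at an unadjusted p under 0.05). The groups did not overlap in any of these 3 sums, and their part in the chaperone values was not tested.

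The second question is whether minocycline altered the genes in stressed mice. In the PFC the CUMS_M and CUMS libraries overlapped for every member. Hspa1a had 69.6, 255 and 93.0 CPM in PFC CUMS_M, against 229 and 129 CPM in PFC CUMS, and Hspa1b had 64.8, 245 and 123 CPM in PFC CUMS_M, against 269.9 and 161 CPM in PFC CUMS. Replicate 2 of PFC CUMS_M was the highest of its group for both. The fits were -0.37 ± 0.83 for Hspa1a and -0.59 ± 0.83 for Hspa1b on the log2 scale (edgeR adjusted p = 1 for both). By edgeR 0 of 10 members were called, against 0.0206% of all genes, by DESeq2 0, against 0.583%, and 0 had an unadjusted p under 0.05, against 5.54%. The share of all genes whose groups did not overlap was 8.98% higher and 12% lower, against 0 of the 10 members. The log2 fold change was above 0 for 2 of 10, against 53.3% of all genes, and the median was -0.08 against 0.016 over all genes. With 1 library left out the members' median lay on either side of 0: it was 0.0059 without replicate 1 and -0.20 without replicate 2 of PFC CUMS, and -0.025 without replicate 1 and -0.19 without replicate 2 of PFC CUMS_M. Immediate early genes summed to 21699.7 to 32044 CPM in PFC CUMS_M, against 20571 to 23818 CPM in PFC CUMS, and 21 of 22 had log2 fold changes above 0 (median 0.30, 0 called by edgeR or DESeq2, 1 at an unadjusted p under 0.05). The astrocyte markers summed to 295 to 466 CPM in PFC CUMS_M, against 682 to 734 CPM in PFC CUMS, with 0 of 8 called by edgeR, 7 at an unadjusted p under 0.05 and 5 called by DESeq2. Oligodendrocyte markers summed to 248 to 364 CPM in PFC CUMS_M, against 618 to 643 CPM in PFC CUMS (0 of 6 called by edgeR or DESeq2, 2 at an unadjusted p under 0.05). Of the 6 endothelial and mural markers, 1 was called lower (67.0 to 82.4 CPM in PFC CUMS_M, against 138 to 165 CPM in PFC CUMS). The part of these in the chaperone values was not tested.

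In the HC all 10 members had a lower fit in CUMS_M than in CUMS. Hspa8 had 661, 775 and 775 CPM in HC CUMS_M, against 1093, 847 and 880.5 CPM in HC CUMS, so that every CUMS_M library was below every CUMS library. Its log2 fold change was -0.35 ± 0.10 (edgeR adjusted p = 0.725). Hsp90ab1 had 564, 599 and 601 CPM in HC CUMS_M, against 883, 612 and 620.3 CPM in HC CUMS. These groups did not overlap either, but the gap between the nearest libraries was small beside replicate 1 of HC CUMS. Hspa1a had 33.9, 47.8 and 139 CPM in HC CUMS_M, against 317, 118 and 95.7 CPM in HC CUMS, and Hspa1b had 42.1, 67.1 and 192 CPM in HC CUMS_M, against 393, 152 and 116 CPM in HC CUMS. Replicate 3 of HC CUMS_M and replicate 1 of HC CUMS stood apart from the rest of their groups, and the groups overlapped.

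In this HC contrast 0 of 10 members were called by edgeR, against 0.00686% of all genes, and 0 by DESeq2, against 0.247%. Hspa8 was the 1 member with an unadjusted p under 0.05, against 1.53% of all genes in the lower direction. The 2 members with groups that did not overlap compare with 4.27% of all genes. None of the 10 log2 fold changes was above 0, against 51.5% of all genes, and the median was -0.33 against 0.0073 over all genes. Without replicate 1 of HC CUMS it was -0.19. The fits of Hspa1a and Hspa1b were -1.26 ± 0.76 and -1.13 ± 0.76 (edgeR adjusted p = 1 for both). The immediate early genes stood lower as well, at a summed 10339 to 13236 CPM in HC CUMS_M, against 15251 to 28072 CPM in HC CUMS. None of these 22 genes had a log2 fold change above 0 (median -1.10, 0 called by edgeR, 22 at an unadjusted p under 0.05, 11 called by DESeq2). Erythroid markers summed to 27.6 to 67.5 CPM in HC CUMS_M, against 80.8 to 213 CPM in HC CUMS (0 of 5 called by edgeR or DESeq2, 4 at an unadjusted p under 0.05). Endothelial and mural markers summed to 106 to 167 CPM in HC CUMS_M, against 154 to 210.0 CPM in HC CUMS (0 of 6 called by edgeR or DESeq2, 3 at an unadjusted p under 0.05). The sum of neutrophil markers overlapped, at 231 to 1696 CPM in HC CUMS_M, against 121 to 323 CPM in HC CUMS (0 of 6 called by edgeR or DESeq2, 3 at an unadjusted p under 0.05). The part of all these in the chaperone values was not tested.

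Set against naive mice, CUMS_M shares its NAIVE libraries with the CUMS contrast and its CUMS_M libraries with the contrast just described. In the PFC, Hspe1 had 32.5, 35.2 and 32.2 CPM in CUMS_M, against 17.8 and 26.1 CPM in NAIVE (log2 0.60 ± 0.17, edgeR adjusted p = 0.17). The 3 CUMS_M libraries were close together and the NAIVE libraries were not, and without replicate 2 of PFC NAIVE the adjusted p was 0.0185. Hspa8 had 983, 1114 and 932 CPM in PFC CUMS_M, against 867 and 785 CPM in PFC NAIVE (log2 0.29 ± 0.12, edgeR adjusted p = 0.295). By edgeR 0 of 10 members were called, against 0.0892% of all genes, and by DESeq2 0, against 0.981%. With an unadjusted p under 0.05 there were 2, both higher, against 8.52% of all genes. The groups did not overlap for 4 members (Hspa1a, Hspa8, Hsp90ab1 and Hspe1), all higher, against 13.9% of all genes. All 10 log2 fold changes were above 0, against 53.3% of all genes, with a median of 0.27 against 0.029. Without replicate 2 of PFC CUMS_M the members' median was 0.10. Immediate early genes summed to 21699.7 to 32044 CPM in PFC CUMS_M, against 17307 to 20617 CPM in PFC NAIVE, and 22 of 22 had log2 fold changes above 0 (median 0.47, 0 called by edgeR or DESeq2, 2 at an unadjusted p under 0.05). Of the 8 astrocyte markers 1 was called higher (295 to 466 CPM in PFC CUMS_M, against 216 to 251 CPM in PFC NAIVE). The 8 microglial markers summed to 41421 to 46864 CPM in PFC CUMS_M, against 47912 to 51507 CPM in PFC NAIVE, lower without overlap. None of the 8 was called by edgeR or DESeq2. The part of these genes in the chaperone values was not tested.

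In the HC the members of CUMS_M lay on both sides of NAIVE. The log2 fold changes ran from -0.26 to 0.21 with 5 of 10 above 0, against 49.7% of all genes, and a median of 0.02. Without replicate 3 of HC CUMS_M the median was -0.13, and without replicate 2 of HC NAIVE it was -0.14. No member was called by edgeR (0 of 10, against 0% of all genes) or by DESeq2 (0 of 10, against 0.00686%), and 0 members had an unadjusted p under 0.05, against 339 genes (2.33%). Dnajb1 had 72.1, 106 and 110.0 CPM in HC CUMS_M, against 116 and 115 CPM in HC NAIVE. Hspd1, the mitochondrial Hsp60, had 50.1, 53.9 and 54.1 CPM in HC CUMS_M, against 50.1 and 48.0 CPM in HC NAIVE. These were the members without overlap, 1 in each direction (lower and higher), against 8.16% and 9.54% of all genes. Erythroid markers summed to 27.6 to 67.5 CPM in HC CUMS_M, against 118 to 136 CPM in HC NAIVE, lower without overlap. None of these 5 markers was called by edgeR, and their part in the chaperone values was not tested.

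**Figure D3:**
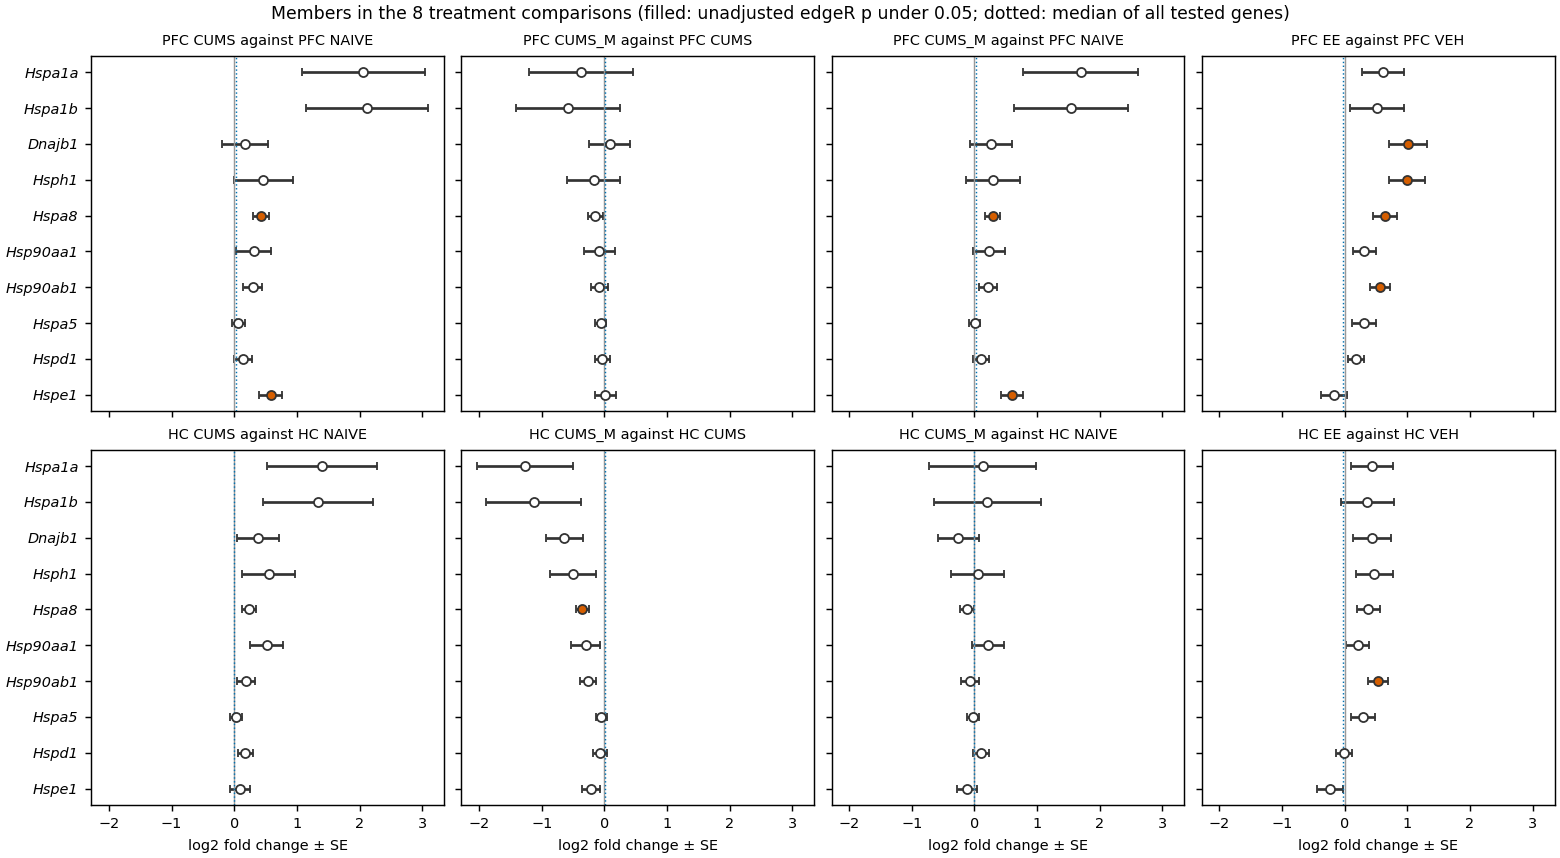
Log2 fold change of each member with its standard error (horizontal axes) in the 8 treatment comparisons, PFC above and HC below. Filled points have an unadjusted edgeR p under 0.05, the dotted line is the median of all tested genes, and none of the points passed the adjusted threshold of 0.05.

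The third question is how EE mice differed from VEH mice, all of them stressed. As labelled, VEH mice received vehicle and EE mice had enrichment, so the parts of enrichment and vehicle cannot be told apart. In the PFC, 4 chaperones of the cytosol stood higher in EE than in VEH without passing the threshold. Dnajb1 had 398, 190.1 and 318 CPM in PFC EE, against 213, 138 and 100.7 CPM in PFC VEH (log2 1.01 ± 0.30). Hsph1 had 58.6, 47.3 and 86.7 CPM in PFC EE, against 32.9, 26.8 and 36.9 CPM in PFC VEH (log2 0.99 ± 0.29). The groups of Hsph1 did not overlap, whereas replicate 2 of PFC EE lay within the VEH range for Dnajb1.

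Hspa8 had 1759, 1171 and 1785 CPM in PFC EE, against 1229.7, 900.1 and 884 CPM in PFC VEH (log2 0.65 ± 0.19). Hsp90ab1 had 1106, 882 and 1104 CPM in PFC EE, against 836, 629 and 631 CPM in PFC VEH (log2 0.56 ± 0.16). The adjusted p of these 4 genes was 0.986 in each case. Without the filter on low counts, Hspa8 and Hsp90ab1 had adjusted p of 0.0217 and 0.038. Replicate 1 of PFC VEH and replicate 2 of PFC EE were the libraries nearest to the other group for both genes, and for Hspa8 they crossed.

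Hspa1a had 171, 148 and 203 CPM in PFC EE, against 139, 77.4 and 126 CPM in PFC VEH, and Hspa1b had 254, 341 and 402 CPM in PFC EE, against 231, 154 and 312 CPM in PFC VEH. The groups of Hspa1a did not overlap and those of Hspa1b did. Hspe1 had 27.2, 26.6 and 30.5 CPM in PFC EE, against 44.3, 24.7 and 26.0 CPM in PFC VEH, and was the only member with a log2 fold change below 0 (-0.17).

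Of the 10 members 0 were called in the PFC by edgeR, against 0% of 15921 genes (677 genes, 4.25%, at an unadjusted p under 0.05), and 0 by DESeq2, against 17 genes (0.107%). The 4 members with an unadjusted p under 0.05, all higher, compare with 2.52% of all genes. The 3 members without overlap (Hspa1a, Hsph1 and Hsp90ab1, all higher) compare with 4.8% of all genes. With 9 of 10 log2 fold changes above 0, against 46.7% of all genes, the median was 0.54, against -0.020 over all genes, and it was 0.34 without replicate 2 of PFC VEH. The immediate early genes summed to 28998 to 44720 CPM in PFC EE, against 18004 to 29943 CPM in PFC VEH, and 22 of 22 had log2 fold changes above 0 (median 0.72, 17 at an unadjusted p under 0.05, 0 called by edgeR and 0 by DESeq2). Markers of red blood cells summed to 202 to 999 CPM in PFC EE, against 31.5 to 58.6 CPM in PFC VEH (0 of 5 called by edgeR, 5 at an unadjusted p under 0.05, 5 by DESeq2). The part of both in the chaperone values was not tested.

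In the HC, 8 of 10 members had a higher fitted mean in EE than in VEH, and none passed the threshold. Hsp90ab1 had 967, 943 and 1171 CPM in HC EE, against 656, 857 and 621 CPM in HC VEH (log2 0.53 ± 0.16, edgeR adjusted p = 0.195), and without the filter on low counts its adjusted p was 0.00804. It was the 1 member whose groups did not overlap, against 9.66% of all genes, and the 1 member with an unadjusted p under 0.05, against 6.58% of all genes in that direction. Hspa8 had 1316, 1365 and 1634 CPM in HC EE, against 987, 1365 and 960.1 CPM in HC VEH. Hspa1b had 369, 274 and 295 CPM in HC EE, against 90.5, 373 and 265 CPM in HC VEH. The VEH libraries of Hspa1b spread more than the EE libraries and held both the lowest and the highest of the 6 HC values.

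The HC contrast had 0 of 10 members called by edgeR, against 0% of all genes (1652 genes, 10.4%, at an unadjusted p under 0.05), and 0 by DESeq2, against 441 genes (2.77%). The median log2 fold change was 0.37, against -0.025 over all genes, with 46% of all genes above 0. Without replicate 1 of HC VEH the members' median was 0.16, and without replicate 2 of HC VEH it was 0.58. Here the immediate early genes did not stand higher: 9 of 22 had log2 fold changes above 0 (median -0.04, 0 called by edgeR or DESeq2, 0 at an unadjusted p under 0.05), with 25892 to 30545 CPM in HC EE, against 23195 to 35646 CPM in HC VEH. Red blood cell markers summed to 352 to 823 CPM in HC EE, against 42.6 to 61.9 CPM in HC VEH (0 of 5 called by edgeR, 5 by DESeq2). Astrocyte markers summed to 612 to 819 CPM in HC EE, against 419 to 533 CPM in HC VEH (0 of 8 called by edgeR, 7 at an unadjusted p under 0.05, 5 by DESeq2). Oligodendrocyte markers summed to 434 to 770.2 CPM in HC EE, against 234 to 296 CPM in HC VEH (0 of 6 called by edgeR, 6 at an unadjusted p under 0.05, 4 by DESeq2). Every EE library was above every VEH library in these 3 sums. The same held for the markers of choroid plexus and of border macrophages and monocytes. Choroid plexus markers summed to 503 to 1965 CPM in HC EE, against 0.566 to 208 CPM in HC VEH (0 of 4 called by edgeR, 1 at an unadjusted p under 0.05, 0 by DESeq2). Border macrophage and monocyte markers summed to 446 to 586 CPM in HC EE, against 252 to 353 CPM in HC VEH (0 of 6 called by edgeR, 3 at an unadjusted p under 0.05, 3 by DESeq2). The part of all these in the chaperone values was not tested.

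Whether an effect differed between regions was tested as the difference of the 2 effects. For CUMS against NAIVE, CUMS_M against CUMS and EE against VEH, 0 of 10 members were called by edgeR, 0 by DESeq2 and 0 had an unadjusted p under 0.05. Over all genes edgeR called 0%, 0.00686% and 0%, DESeq2 called 0.185%, 0.0137% and 0%, and 6.27%, 3.47% and 4.21% had an unadjusted p under 0.05, in the order of the contrasts above. In the same order, the differences (HC minus PFC) ran from -0.78 to 0.21, -0.90 to 0.014 and -0.57 to -0.019 on the log2 scale. Over all genes 45.7%, 51% and 50% were above 0. In the EE contrast every member was thus below 0, but the members' median ran from -0.33 to 0.010 with 1 library left out. The smallest unadjusted p was 0.0636, for Hspe1 in the CUMS contrast. The effects in HC and PFC are therefore given side by side without a claim that they differ.

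Between regions, Hspa8 was the 1 member called, lower in the HC of the minocycline experiment. Its level was 661, 809 and 1093 CPM (lowest, median and highest of 8 libraries) in HC, against 785, 983 and 1158 CPM in the 7 PFC libraries. The mean was 829 ± 127 CPM in HC and 987 ± 136 CPM in PFC (SD), and the ranges overlapped widely. The log2 fold change, with each treatment weighted equally, was -0.25 ± 0.07 (edgeR adjusted p = 0.0336, DESeq2 adjusted p = 0.00813). The call ended when any of 8 libraries was left out: the adjusted p was 0.134 or 0.0567 when the library left out was replicate 1 or 2 of PFC CUMS, 0.0706 for replicate 2 of PFC CUMS_M and 0.0854 for replicate 1 of PFC NAIVE. For the HC libraries it was 0.0718 and 0.0575 for replicates 2 and 3 of CUMS, 0.0756 for replicate 1 of CUMS_M and 0.115 for replicate 2 of NAIVE.

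Hspa5, the Hsp70 of the endoplasmic reticulum, had 735 ± 43.2 CPM in HC and 798 ± 38.2 CPM in PFC (SD, n = 8 and 7), with a log2 fold change of -0.12 ± 0.05 (edgeR adjusted p = 0.212). The count of 1 member called by edgeR compares with 5.1% of all genes, 1.67% in the lower direction, and the 1 called by DESeq2 with 8.05%. The 2 members with an unadjusted p under 0.05, both lower, compare with 7.33% of all genes, and 1 of 10 log2 fold changes was above 0, against 53.9%. In the enrichment experiment Hspa8 had a log2 fold change of 0.00 ± 0.13 between HC and PFC. There 0 of 10 members were called by edgeR or DESeq2, against 0% of all genes for both, and 0 had an unadjusted p under 0.05, against 2.08%. Markers of other cells differed between regions in the minocycline experiment. Choroid plexus markers (4 of 4 called higher) summed to 553 to 1900 CPM in HC, against 1.19 to 598 CPM in PFC, where up to 3 of the 4 were at 0 in 6 libraries. Astrocyte markers (3 of 8 called higher) summed to 271 to 515 CPM in HC, against 216 to 734 CPM in PFC, and endothelial and mural markers (4 of 6 called higher) to 106 to 210 CPM in HC, against 67.0 to 165 CPM in PFC. Markers of neurons and neutrophils stood lower in HC. Neuronal markers (3 of 6 called lower) summed to 6.30 to 12.8 CPM in HC, against 8.11 to 64.7 CPM in PFC, and neutrophil markers (1 of 6 called lower) to 121 to 1696 CPM in HC, against 438 to 3525 CPM in PFC. Immediate early genes (2 of 22 called lower) summed to 10339 to 28072 CPM in HC, against 17307 to 32044 CPM in PFC. The part of these in the level of Hspa8 was not tested.

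The members differed in how much they varied within a group. In the minocycline experiment the biological coefficient of variation, the spread between libraries of a group that edgeR estimates beyond counting noise, was 61.1% for Hspa1a and 60.9% for Hspa1b, against a median of 17.3% over all genes. These values were above those of 90.6% and 90.4% of all tested genes. Hsph1 (31.2%), Dnajb1 (24.7%) and Hsp90aa1 (19.3%), the other inducible genes of the cytosol, also lay above the median. Hspe1 (12.6%), Hsp90ab1 (12.5%), Hspa8 (10.99%), Hspd1 (10.01%) and Hspa5 (9.59%) lay below it, and only 7.06% of genes varied less than Hspa5.

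In the enrichment experiment the same 4 genes led, with 36.1% for Hspa1b, 29.0% for Hspa1a, 26.1% for Dnajb1 and 24.8% for Hsph1, against a median of 20.3%. The other 6 members were between 12.3% (Hspd1) and 18.8% (Hspe1). From the lowest to the highest of the 15 libraries, Hspa1b spanned 12.1-fold and Hspa1a 9.37-fold, whereas Hspd1 spanned 1.30-fold and Hspa5 1.28-fold. Replicate 1 of HC CUMS was the highest of the 15 for 6 members (Hspa1a, Hspa1b, Hsph1, Dnajb1, Hsp90aa1 and Hsp90ab1). Replicate 3 of PFC EE was the highest of the 12 enrichment libraries for 6 members (Hspa1a, Hspa1b, Hspa5, Hspa8, Hsph1 and Hsp90aa1).

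**Figure D4:**
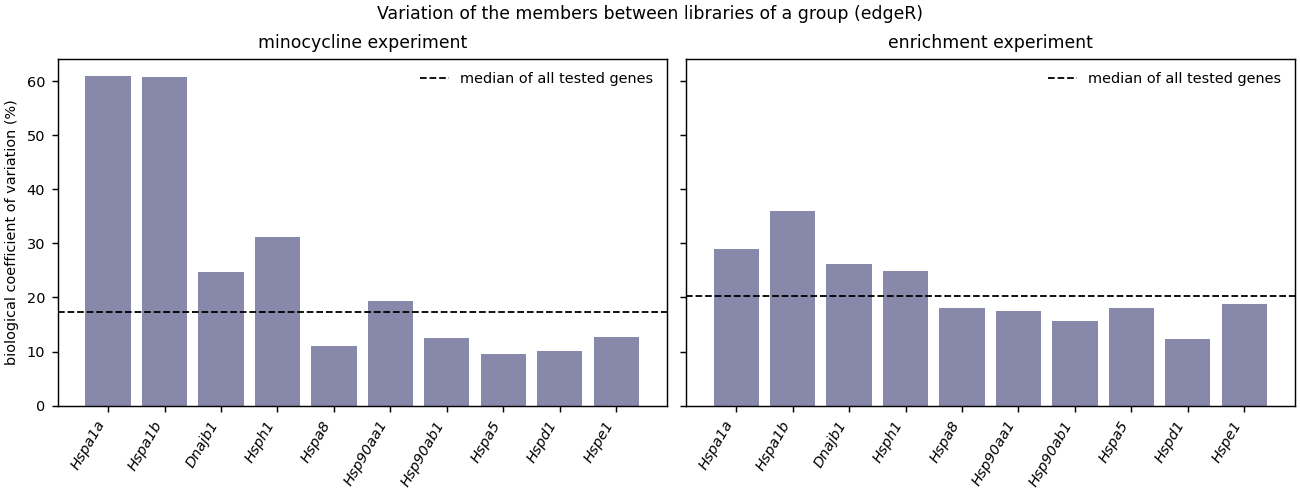
Biological coefficient of variation of each member in percent (bars, from 0) in both experiments, with the median of all tested genes as a dashed line. Hspa1a and Hspa1b reach 61.1% and 60.9% in the minocycline experiment against a median of 17.3%, and Hspa5 and Hspd1 lie below the median in both.

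Among the 7 cytosolic members (all but Hspa5, Hspd1 and Hspe1) the 21 pairs had Pearson r from 0.61 to 0.98 (median 0.78) over the 15 minocycline libraries, on log2 CPM. Over the 12 enrichment libraries r ran from 0.23, for Hspa1b with Dnajb1, to 0.97 (median 0.75). With each group's mean removed the medians were 0.75 and 0.61, and the pair Hspa1b and Dnajb1 of the enrichment experiment had -0.18. Hspa1a and Hspa1b had r of 0.98 and 0.93, and share reads, as stated above. Hspa8 and Hsp90ab1 had r of 0.79 and 0.97. Pairs of a cytosolic member with Hspd1 or Hspe1 had a median r of 0.43 and 0.20 (14 pairs), or 0.089 and 0.34 with each group's mean removed. Pairs with Hspa5 had a median of 0.28 and 0.50 (7 pairs), with r up to 0.88, for Dnajb1 in the enrichment experiment. With each group's mean removed the medians of the Hspa5 pairs were 0.18 and 0.22. These correlations are descriptions, since the points share libraries, scaling and depth.

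Hspa1b took 48.2% to 59.3% of the counts of the inducible pair in the 15 minocycline libraries (median 55.5%) and 59.7% to 71.2% in the 12 enrichment libraries (median 66.5%). The ranges of the experiments did not overlap, and the widest 95% Wilson interval of a library was 8.35 percentage points in the minocycline table and 3.42 in the enrichment table. These intervals cover counting error only. Most windows of each gene occur in another gene, so the share depends on how shared reads were counted, and the part of that in the difference was not tested.

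The partners of these chaperones were read from 4 lists with 55 genes, all of which passed the count filter. Of the 22 cytosolic co-chaperones and heat shock factors, 1 was called in 2 of the 13 contrasts and none in the other 11. That gene was Hspb8, a small heat shock protein that works with Bag3 in clearing misfolded proteins. It had 19 and 28 counts in PFC CUMS, against 0 and 1 counts in PFC NAIVE (2.03 ± 0.802 CPM and 0.0616 ± 0.0872 CPM, SD, n = 2 each, edgeR adjusted p = 0.0164), as 1 of 22 genes (4.55%) called there, against 0.816% of all genes. The call ended without PFC CUMS 2 (adjusted p = 0.137), without PFC NAIVE 1 (0.118), in a fit of only the compared groups (0.381) and with the replicate number as a block (0.0612). Hspb8 was also higher in HC than in PFC of the minocycline experiment, at 2.84 ± 0.79 CPM in HC and 1.28 ± 0.972 CPM in PFC (log2 2.11 ± 0.41, edgeR adjusted p = 0.00438), where 5.1% of all genes were called. That fit weights each treatment equally and so includes PFC NAIVE, with its 0 and 1 counts: the log2 fold change was 3.06 without replicate 2 of PFC NAIVE and 1.83 without replicate 1. The call held in all 19 alternatives, at adjusted p from 0.000553 to 0.0248. In both contrasts markers of other cell types differed too, as given above, and their part in the level of Hspb8 was not tested.

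Other partners of the cytosol were not called. Hsf1, the heat shock factor itself, had 54.98 ± 1.01 CPM in PFC CUMS and 37.8 ± 4.17 CPM in PFC NAIVE (SD, n = 2 each, edgeR adjusted p = 0.189). Bag3, the co-chaperone that links Hsp70 to autophagy, stood on the other side, at 62.2 ± 2.08 CPM in PFC CUMS and 89.0 ± 17.5 CPM in PFC NAIVE (edgeR adjusted p = 0.147). Dnaja1, an Hsp40 of the cytosol, had 115 ± 37.5 CPM in PFC EE and 69.0 ± 4.52 CPM in PFC VEH (SD, n = 3 each, edgeR adjusted p = 0.986). Hspa4l, an Hsp110 relative of Hsph1, had 9.95 ± 1.21 CPM in HC EE and 5.37 ± 0.682 CPM in HC VEH (edgeR adjusted p = 0.0916). In a single contrast 0 to 5 of these 22 were at an unadjusted p under 0.05, and 0 to 2 were called by DESeq2. The 5, or 22.7% of the list, were reached in PFC CUMS_M against NAIVE, where 14% of all genes had such a p, and in PFC EE against VEH, where 4.25% had. The 2 called by DESeq2, 9.09% of the list, were in PFC CUMS against NAIVE, against 2.39% of all genes.

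Of the 16 chaperones of the endoplasmic reticulum, 2 (12.5%) were called, both between regions in the minocycline experiment, where 5.1% of all genes were called. At an unadjusted p under 0.05 there were 0 to 7 in a single contrast, with 0 to 3 called by DESeq2. The 7 (43.8%) and the 3 (18.8%) were in that same contrast, against 19% and 8.05% of all genes. Hsp90b1, the Hsp90 of that compartment, fell to 657 ± 23.4 CPM in HC, against 754 ± 45.9 CPM in PFC (SD, n = 8 and 7, log2 -0.20 ± 0.05, edgeR adjusted p = 0.0298). Serpinh1, a collagen chaperone, was higher in HC, at 5.96 ± 1.27 CPM in HC and 2.10 ± 1.49 CPM in PFC (log2 1.49 ± 0.40, edgeR adjusted p = 0.0438). The call of Hsp90b1 ended with the replicate block (adjusted p = 0.074) and without any of 8 libraries: PFC CUMS 1 (0.148) or 2 (0.053), PFC NAIVE 2 (0.0822), HC CUMS 2 (0.0556), HC CUMS_M 2 (0.0523) or 3 (0.0501), and HC NAIVE 1 (0.0704) or 2 (0.103). That of Serpinh1 ended with the replicate block (0.111) and without any library but PFC CUMS_M 2 or 3, at adjusted p from 0.0684 to 0.147. Markers of other cell types differed between regions too, as given above, and their part in the levels of Hsp90b1 and Serpinh1 was not tested. None of the 9 mitochondrial chaperones and proteases and none of the 8 subunits of the chaperonin CCT was called by edgeR in any of the 13 contrasts, where 0 to 2 and 0 to 1 of them were at an unadjusted p under 0.05, with 0 and 0 to 1 called by DESeq2. The highest of these counts stand against 13.7% or more of all genes at that p in their contrasts, and the 1 CCT gene called by DESeq2 against 8.05%.

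The 2 immediate early genes called between regions were Dusp1, a phosphatase of MAP kinases, and Nfkbiz, a regulator of NF-kappaB targets. Dusp1 fell to 493 ± 248 CPM in HC, against 885 ± 273 CPM in PFC (log2 -0.91 ± 0.21, edgeR adjusted p = 0.0418), and Nfkbiz to 119 ± 65.0 CPM in HC, against 204 ± 48.9 CPM in PFC (log2 -0.87 ± 0.21, edgeR adjusted p = 0.0463). The call of Dusp1 ended with the replicate block (adjusted p = 0.124) and without any library but PFC CUMS_M 2 or 3, HC CUMS 1 or HC NAIVE 1 (0.0604 to 0.132). That of Nfkbiz ended with no filter on low counts (0.0579) and without any library but PFC CUMS_M 3, HC CUMS 1 or HC CUMS 3 (0.0523 to 0.139).

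The genes whose pattern was most like that of the inducible chaperones were ranked against the mean of standardised log2 CPM of Hspa1a, Hspa1b, Hsph1 and Dnajb1, over 14206 genes tested in both tables. Dnaja1 ranked first, with Pearson r of 0.92 over the 15 minocycline libraries and 0.77 over the 12 enrichment libraries. Kif5b, a heavy chain of the motor protein kinesin, followed with 0.87 and 0.75, and Gdf15, a stress-responsive cytokine of the TGF-beta family, with 0.75 and 0.79. Gdf15 was low, with 1 to 33 counts per library in the minocycline experiment and 13 to 47 in the enrichment experiment. Hmox1, heme oxygenase, had 0.66 and 0.82, Ccl4, a chemokine, 0.71 and 0.74, and Rcsd1 0.71 and 0.74. These rankings are descriptions, with the libraries, the scaling and the handling of the tissue shared by all points. Hspa1a and Hspa1b, which share reads, are both in the score.

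**Figure D5:**
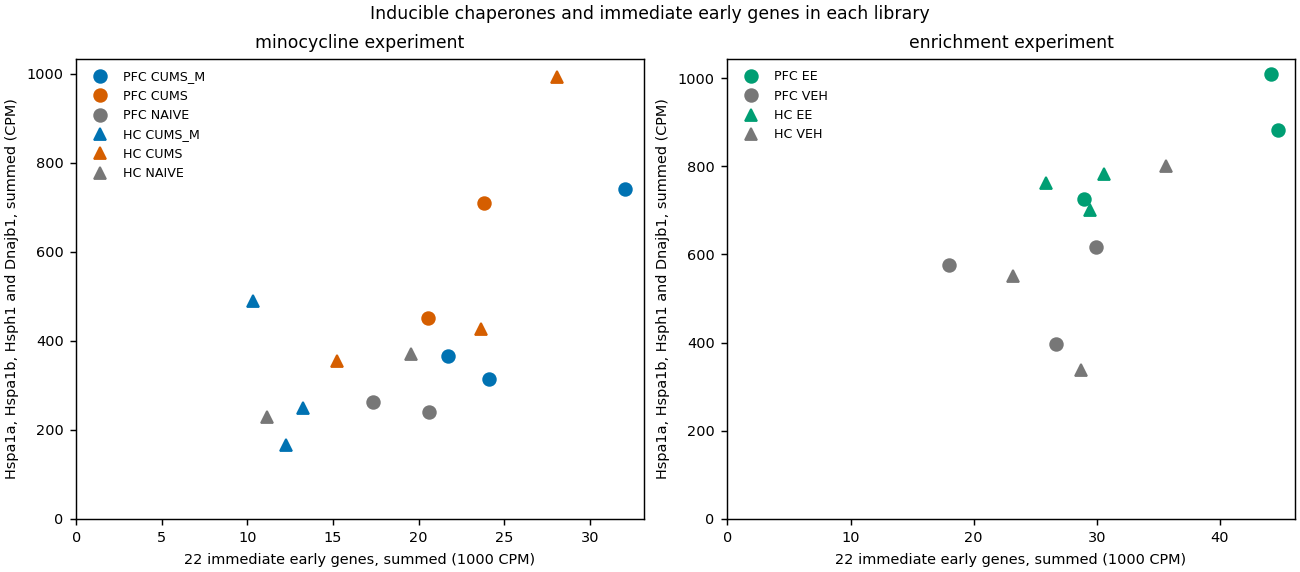
Summed level of 4 inducible chaperones (Hspa1a, Hspa1b, Hsph1 and Dnajb1, CPM, vertical axis) against the summed level of 22 immediate early genes (in units of 1000 CPM, horizontal axis), 1 point per library, circles PFC and triangles HC. The PFC EE libraries run from 727 to 1010.0 CPM on the vertical axis and the PFC VEH libraries from 396 to 616 CPM, and the HC CUMS library at 991 CPM is the highest of the minocycline experiment.

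Set beside the immediate early genes, the 4 inducible chaperones summed to 314 to 741 CPM in PFC CUMS_M, to 452 to 708 CPM in PFC CUMS and to 239 to 262 CPM in PFC NAIVE. In the HC they summed to 167 to 488 CPM in CUMS_M, to 355 to 991 CPM in CUMS and to 229 to 369 CPM in NAIVE. In the HC of the enrichment experiment they summed to 700.4 to 782 CPM in EE and to 338 to 800.1 CPM in VEH. The library with the highest chaperone sum of the minocycline experiment, replicate 1 of HC CUMS, also had the highest immediate early sum of the HC libraries, at 28072 CPM. In replicate 3 of HC CUMS_M the order was the other way: the chaperone sum was the highest of its group, at 488 CPM, and the immediate early sum was the lowest, at 10339 CPM.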

How the data were processed

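RNA-seq counts per gene were deposited by the authors as 1 table per experiment. Per the submitters' processing notes, Trimmomatic 0.36, STAR 2.6.1b, Picard 2.17.1, featureCounts 1.5.3 and DESeq2 1.24.0 were used with mm10 (GRCm38); annotation release and strand setting are not given in the sources used here. Libraries were made with a stranded polyA kit and read as pairs of 76 bases, per the series' design text. The members and lists were chosen with earlier results of these data known.

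Symbols came from GENCODE M21. Genes were kept by filterByExpr (minimum count 10, minimum total 15), leaving 14579 and 15921, with TMM scaling. The test was the quasi-likelihood F-test of edgeR 4.0.16 (robust, 1 mean per group, tables fitted separately), checked on simulated data, with a Benjamini-Hochberg adjustment that covers every gene tested and a threshold of 0.05. A member's fold change was to be named where its unadjusted p was under 0.05; Hspa1a, Hspa1b and the fold change of Hspe1 in PFC EE were added after their values were seen. Alternatives were DESeq2 1.42.0 (its size factors and its Wald test), no count filter, a replicate block, a fit of only the compared groups, the Hspa1 pair summed, and each library left out. In PFC EE and VEH, deviations from the group means correlated between libraries of equal number (r = 0.359, 0.198 and 0.208), a sign from the data and not the labels, and the block changed no member's call there. In HC EE and VEH the same r was -0.239, -0.110 and -0.0647. Between regions of the enrichment experiment r ran from -0.278 (EE 1) to 0.438 (VEH 1). In the minocycline experiment all r lay between -0.133 and 0.118. No 2 replicates agreed within sampling noise (chi-square per degree of freedom 6.20 to 118). R 4.3.3, Python 3.11.15 and matplotlib 3.10.9 were used.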

Additional observations from a re-analysis of the deposited data

How the results depend on the processing

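Of 142 alternative values for named members, 128 kept their direction and side of the threshold, and none reversed. Of the 12 member tests behind these values only 1 was called, so for the rest this mostly means staying uncalled. The called one, Hspa8 between regions in the minocycline experiment, kept its call in 11 of 19 alternatives. Without the filter on low counts, the members called were 1 in PFC CUMS against NAIVE (Hspa8), 2 in PFC EE against VEH (Hspa8 and Hsp90ab1) and 1 in HC EE against VEH (Hsp90ab1), each against 0 with it. The cause was not tested. Leaving out 1 library gave 0 to 1 members called in PFC CUMS against NAIVE, 0 to 1 in PFC CUMS_M against NAIVE (Hspe1 in both, without PFC NAIVE 2) and 0 to 1 between regions in the minocycline experiment (Hspa8, 1 with every library). With the replicate block, the call of no member changed: 0 members were called in PFC CUMS against NAIVE and 1, Hspa8, between regions in the minocycline experiment. The replicate block ended the calls of Hspb8 in PFC CUMS against NAIVE (adjusted p = 0.0612) and of Hsp90b1 (0.074), Serpinh1 (0.111) and Dusp1 (0.124) between regions. The median of the members in HC CUMS_M against NAIVE ran from -0.14 to 0.060 with 1 library left out and from -0.012 to 0.029 over the other alternatives, on both sides of 0. That in PFC CUMS_M against CUMS ran from -0.20 to 0.0059 with 1 library left out. Precision is low for the most variable members: the fits of 2.06 for Hspa1a and 2.12 for Hspa1b in PFC CUMS against NAIVE had standard errors of 0.98 and 0.97 on the log2 scale. The minocycline libraries were sequenced less deeply (7.87 M to 15.3 M counts) than those of the enrichment experiment (19.5 M to 23.9 M).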
